A study of Rattus norvegicus with 3 samples.

Results

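Amino acid transporters move amino acids across the plasma membrane and the lysosomal membrane, and the genes described here belong to 6 solute carrier families. All platform probe sets with a single gene symbol were taken whose symbol is Slc1a, Slc7a, Slc36a, Slc38a or Slc43a followed by a number, or Slc3a1 or Slc3a2. This gave 38 genes of 14506, each with 1 probe set. The rule used symbols alone and no measured value, but it was chosen with earlier results of these data known. Of the 38, 31 had a mean level over the arrays at or above the dim level, set at the 25th percentile of all gene means (5.34 on the log2 scale), and 7 lay below it.

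RNA came from the tibialis anterior, a leg muscle, of male Wistar rats aged 11 weeks. All 3 groups had eaten a diet with 45% of energy from fat for 3 weeks and had received 150 µg of plasmid in the muscle by electroporation, given after 2 weeks of the diet, and all were killed 8 days later. The Plin2 group received pENTR-CMV-Plin2, the Plin5 group received pcDNA3.1-CMV-Plin5 and the control group received the empty pcDNA3.1 vector, so the Plin2 plasmid differed from the others in backbone as well as insert. CMV is a viral promoter that is active in many cell types and not only in muscle fibres. Perilipins 2 and 5, encoded by Plin2 and Plin5, coat lipid droplets. Each group was 1 array of RNA pooled from 6 rats, with no replicates. No spread between animals was measured, no difference was tested and no p-value is given. Precision is limited by how few arrays there were.

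The labels were checked against marker genes. The Plin2 transcript stood at 9.99, 10.71 and 10.08 on the empty vector, Plin2 and Plin5 arrays. The Plin5 transcript stood at 7.52, 6.79 and 8.30, so each was highest on its own array. These levels do not separate introduced from endogenous transcript. All 14 muscle fibre markers were above the dim level. On the Plin2 array all 14 lay below the empty vector array, with log2 differences from −1.75 to −0.02. The summed level of these markers was taken on the linear scale. It was 0.85 times that of the empty vector on the Plin2 array and 1.02 times on the Plin5 array. The summed level of 14 macrophage markers was 2.11 times and 0.81 times, that of 13 T, natural killer and B cell markers 2.02 and 0.94 times, and that of 7 satellite cell and regeneration markers 1.95 and 0.77 times. These 7 were Myf5, Myod1, Myog, Mymk, Myh3 and the acetylcholine receptor genes Chrna1 and Chrng, while Pax7, Mymx and Myh8 were not measured. Chrna1 (11.24, 12.37 and 10.73) and Myh3 (10.86, 11.65 and 10.83) had the highest levels and weighed most in the sum. The sum therefore does not measure satellite cells alone. Tendon markers stood at 0.81 and 0.45 times and fibroblast markers at 1.13 and 0.90 times. Endothelial markers stood at 1.01 and 1.03 times, Schwann cell markers at 0.99 and 0.94 times, and 7 adipocyte markers, with Lep and Pck1 dim, at 1.15 and 0.92 times. Of 8 neutrophil markers, 7 were dim, among them S100a8 and S100a9, and the sum was 2.25 and 0.89 times the control. In whole muscle, fewer cells of a type and less RNA per cell cannot be told apart.

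Glutamine, alanine and other small neutral amino acids enter muscle with sodium through system A and system N carriers of the Slc38 family. Exchangers of the Slc7 family, most of them paired with the heavy chain Slc3a2, swap intracellular amino acids for leucine and other large neutral ones, for arginine and lysine, or for cystine. Carriers of the Slc36 family and some Slc38 members work with protons or in the lysosome, where amino acid supply is read by mTORC1, the kinase complex that promotes protein synthesis. Transcription of several of these carriers is known to respond to amino acid shortage through the factor Atf4.

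On the Plin2 array 5 carriers passed 1.5-fold, 16.1% of the 31 members above the dim level, beside 14.6% of all genes. The sodium-coupled uptake carriers Slc38a3, Slc38a2 and Slc38a4 were lower than on the empty vector array by 3.40, 1.54 and 1.51-fold, and the exchangers Slc7a7 and Slc7a5 were higher by 1.89 and 1.87-fold. On the Plin5 array Slc7a5 and Slc7a11 were lower by 1.62 and 1.61-fold, and no member was higher by 1.5-fold. The shares of all genes there were 1.42% lower and 0.221% higher. Of the 31 members above the dim level, 15 lay above the control on the Plin2 array and below it on the Plin5 array, and 6 lay the other way round. Of all 10879 genes above the dim level, 2541 and 1859 did so. With the arrays centred on their median genes, which gives tied genes the sign of the shift, the member counts were 14 and 14 and those of all genes 1858 and 6730. The control array is shared by these comparisons, which ties the directions to each other.

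**Figure D1:**
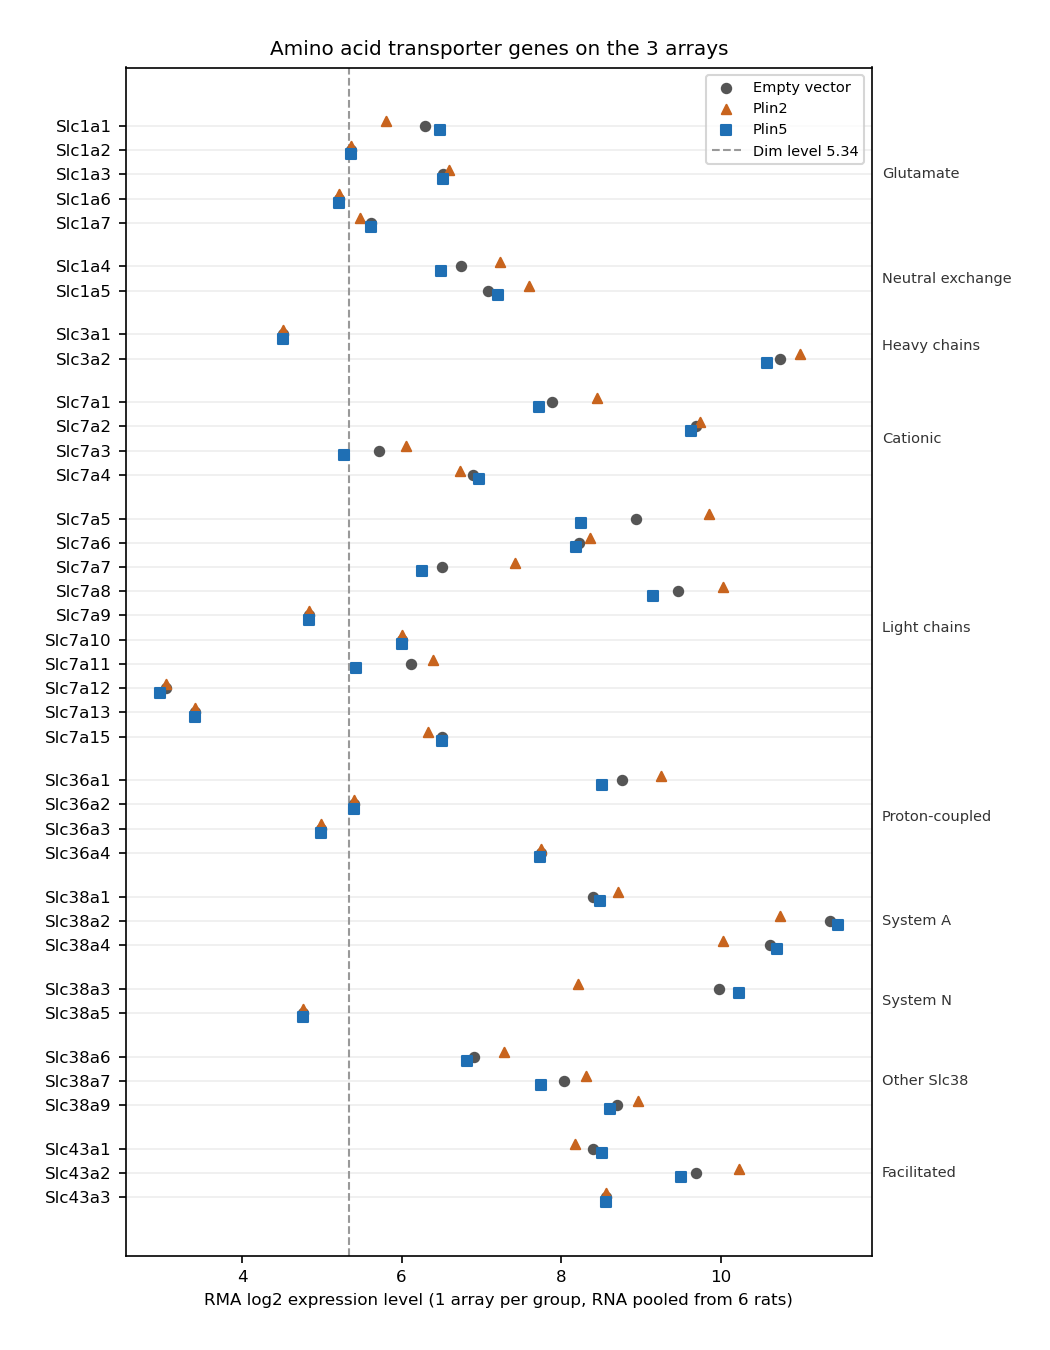
RMA log2 levels of all 38 transporter genes on the 3 arrays (circle, empty vector; triangle, Plin2; square, Plin5), grouped by transport role, with the dim level of 5.34 as a dashed line; levels of different genes come from different probe sets and are not comparable with each other. Slc38a3 on the Plin2 array (8.21) lies far to the left of its other points (9.97 and 10.23), and the 3 points of 10 genes share a single level.

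The largest difference was in a system N carrier. Slc38a3 (probe set 10920122), a sodium-coupled glutamine carrier of system N, stood at 9.97 on the empty vector array, 8.21 on the Plin2 array and 10.23 on the Plin5 array. The Plin2 array was the low one, at −1.76 log2 units against the control, while the Plin5 array lay 0.25 above it. Ranked downward, the Plin2 difference was number 10 of 10879 genes. The system A carrier Slc38a2 (10906608), which takes up alanine, glutamine and other small neutral amino acids, stood at 11.36, 10.74 and 11.46 in the same order of arrays, and its close relative Slc38a4 (10906626) at 10.61, 10.02 and 10.70. Both were low on the Plin2 array alone, by −0.62 and −0.59. Slc38a4 was the member just past 1.5-fold, and with quantile normalization (−0.57) or a loess correction for level (−0.58) it lay just short of it. The third system A carrier, Slc38a1, stood at 8.40, 8.70 and 8.49 and was highest on the Plin2 array.

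Slc38a1, Slc38a2 and Slc38a4 follow each other on chromosome 7 of the RefSeq assembly GRCr8, with 0 other protein-coding genes between them, yet only the latter 2 were lower on the Plin2 array. The 250 bases before the RefSeq start of these 2 genes are shown because they were the neighbours that were low together. They are written 5′ to 3′ along the gene, and capitals mark the antioxidant response element core described further on.
Slc38a2, chr7:129742620-129742869, minus strand: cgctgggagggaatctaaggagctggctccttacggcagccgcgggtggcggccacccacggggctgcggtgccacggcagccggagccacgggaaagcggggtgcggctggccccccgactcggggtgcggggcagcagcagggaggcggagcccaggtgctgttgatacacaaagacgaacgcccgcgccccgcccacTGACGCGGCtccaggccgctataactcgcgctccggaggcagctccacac
Slc38a4, chr7:130082170-130082419, minus strand: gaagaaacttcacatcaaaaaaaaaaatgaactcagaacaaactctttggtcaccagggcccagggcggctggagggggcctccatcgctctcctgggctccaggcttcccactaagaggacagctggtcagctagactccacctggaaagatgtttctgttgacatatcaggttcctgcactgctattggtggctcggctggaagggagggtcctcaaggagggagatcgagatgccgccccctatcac
The Slc38a4 window held none of the 3 motifs searched.

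The remaining Slc38 members differed little. Slc38a6 stood at 6.91, 7.28 and 6.82, the lysosomal carrier Slc38a7 at 8.03, 8.31 and 7.74, and Slc38a9, a lysosomal arginine sensor for mTORC1, at 8.70, 8.96 and 8.61. All 3 were highest on the Plin2 array and lowest on the Plin5 array, with no difference from the control past 1.5-fold. Slc38a5, the other system N carrier, was dim and equal on all arrays (4.77). Within the family, 3 of 7 members above the dim level were lower by 1.5-fold on the Plin2 array, beside 5.8% of all genes. The median of the 7 was 0.26.

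Of the 7 Slc7 light chains above the dim level, 2 were higher by 1.5-fold on the Plin2 array and none was lower by that amount. The shares of all genes were 8.84% higher and 5.8% lower. Slc7a5 (10811531), which encodes LAT1 and exchanges leucine and other large neutral amino acids for glutamine, stood at 8.94 on the empty vector array, 9.85 on the Plin2 array and 8.25 on the Plin5 array. It was the only member to pass 1.5-fold against the control on both arrays, in opposite directions (0.91 and −0.69). Slc7a7 (10783537), a light chain that exchanges arginine and lysine for neutral amino acids and is known in macrophages and epithelia, stood at 6.50, 7.42 and 6.25. Its Plin2 difference (0.92) was the largest upward among the members, and its Plin5 difference was −0.25. The summed macrophage level moved the same way on both arrays (2.11 and 0.81 times the control). So did the sums of satellite cell and regeneration markers (1.95 and 0.77) and of T, natural killer and B cell markers (2.02 and 0.94). The sums of neutrophil (2.25 and 0.89), fibroblast (1.13 and 0.90) and adipocyte markers (1.15 and 0.92) had this order too. Of the neutrophil markers only Csf3r (7.75, 9.40 and 7.40) was above the dim level. Of 5 adipocyte markers above it, 3 were equal on all arrays. Cfd had this order (7.81, 8.28 and 7.46) and Retn the opposite one (6.19, 6.15 and 6.23). The part of these cell types or states in the Slc7a7 and Slc7a5 differences was not tested.

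The windows before Slc7a5 and Slc7a7 are shown because these were the members higher by 1.5-fold on the Plin2 array. Capitals mark an E-box in Slc7a5 and an antioxidant response element core in Slc7a7.
Slc7a5, chr19:66872413-66872662, minus strand: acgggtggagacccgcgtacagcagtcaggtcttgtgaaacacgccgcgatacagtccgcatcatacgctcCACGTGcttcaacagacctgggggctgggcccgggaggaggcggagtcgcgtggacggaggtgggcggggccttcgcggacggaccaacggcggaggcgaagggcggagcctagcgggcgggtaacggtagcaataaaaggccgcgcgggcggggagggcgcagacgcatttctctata
Slc7a7, chr15:31835684-31835933, minus strand: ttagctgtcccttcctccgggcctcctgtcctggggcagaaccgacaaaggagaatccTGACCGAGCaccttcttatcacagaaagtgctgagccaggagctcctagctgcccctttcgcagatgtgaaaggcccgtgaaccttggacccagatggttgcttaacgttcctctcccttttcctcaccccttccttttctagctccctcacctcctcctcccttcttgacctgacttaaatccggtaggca

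Slc7a11 (10823057), the light chain xCT that imports cystine in exchange for glutamate, stood at 6.12, 6.39 and 5.43. It was lowest on the Plin5 array, by −0.69 against the control, where its level was close to the dim level of 5.34. Slc7a8 (LAT2), which exchanges neutral amino acids, stood at 9.46, 10.02 and 9.15, and its Plin2 difference of 0.56 was just short of 1.5-fold. Slc7a6 had a small spread of 8.23, 8.36 and 8.18. Slc7a15 differed on the Plin2 array alone (6.51, 6.33 and 6.51), and Slc7a10, a carrier of small neutral amino acids, was equal on all 3 (6.01). Slc7a9, Slc7a12 and Slc7a13 were dim, with levels from 2.97 to 4.84.

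Heavy chains carry the light chains to the membrane. Slc3a2 (10728507), the partner of Slc7a5, Slc7a6, Slc7a7, Slc7a8, Slc7a10 and Slc7a11, stood at 10.73, 10.99 and 10.58. It had the order of its main partners, highest on the Plin2 array and lowest on the Plin5 array, with differences of 0.26 and −0.16 that were smaller than those of Slc7a5. Slc3a1, the partner of Slc7a9, was dim and equal on all arrays (4.52), as was Slc7a9 (4.84).

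Cationic amino acid carriers, which take up arginine and lysine, were led by Slc7a1. It stood at 7.88, 8.45 and 7.73, and its Plin2 difference of 0.57 (1.48-fold) was the nearest below the threshold. Slc7a2, a relative known for arginine uptake in muscle, liver and macrophages, was almost level at 9.69, 9.74 and 9.62, and its sign against the control on the Plin2 array turned after median-centring (−0.03). Slc7a3 stood at 5.72, 6.05 and 5.28, the last below the dim level. Slc7a4, a relative of these carriers, stood at 6.90, 6.73 and 6.96 and was lowest on the Plin2 array.

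Slc1 members fall into glutamate carriers and neutral exchangers. Slc1a4 and Slc1a5, which exchange alanine, serine, cysteine and, for Slc1a5, glutamine, stood at 6.74, 7.23 and 6.50 and at 7.09, 7.60 and 7.20. Both were highest on the Plin2 array, by 0.49 and 0.51, below 1.5-fold. Slc1a1, a glutamate and cysteine carrier, stood at 6.29, 5.80 and 6.48 and was lowest on the Plin2 array (−0.49). The other glutamate carriers showed little: Slc1a2 was equal (5.37), Slc1a3 ranged from 6.51 to 6.59, Slc1a7 from 5.48 to 5.62, and Slc1a6 was dim (5.22).

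The windows before Slc7a1 and Slc1a4 are shown as 2 of the 3 member windows that held the amino acid response element core, the third being that of Slc38a1. In the windows of Slc7a1 and Slc1a4, capitals mark this core and 1 further motif, an antioxidant response element core in Slc7a1 and an E-box in Slc1a4.
Slc7a1, chr12:11664238-11664487, plus strand: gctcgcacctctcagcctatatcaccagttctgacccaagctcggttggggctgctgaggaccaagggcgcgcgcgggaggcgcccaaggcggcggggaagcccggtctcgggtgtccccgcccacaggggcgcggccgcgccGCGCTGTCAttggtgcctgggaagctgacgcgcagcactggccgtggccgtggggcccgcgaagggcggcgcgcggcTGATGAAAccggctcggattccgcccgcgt
Slc1a4, chr14:98761563-98761812, minus strand: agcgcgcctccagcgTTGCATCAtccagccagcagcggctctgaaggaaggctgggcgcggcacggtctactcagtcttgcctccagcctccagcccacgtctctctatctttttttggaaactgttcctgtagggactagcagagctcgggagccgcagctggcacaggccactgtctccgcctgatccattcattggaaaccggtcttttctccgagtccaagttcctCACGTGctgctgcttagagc
Windows were at hand for 30 of the 38 members (34 windows, since some genes have several starts), from RefSeq on GRCr8. The motifs were the amino acid response element core TGATGNAA, the antioxidant response element core TGACNNNGC and the E-box CACGTG, each searched on both strands. Their shares were 3 of 34 member windows (8.82%) against 3.40% of 33469 windows, 6 of 34 (17.6%) against 10.1%, and 6 of 34 (17.6%) against 5.59%. In the Slc36a1 window an E-box overlapped an antioxidant core. Median GC content was 54.4% in member windows and 51.2% in all. A match describes these letters and not a bound site.

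Among the proton-coupled carriers, Slc36a1, a lysosomal exporter of small amino acids, stood at 8.76, 9.25 and 8.51, again highest on the Plin2 array (0.49). Slc36a4 was nearly level (7.75, 7.75 and 7.73), Slc36a2 was equal (5.40) and Slc36a3 was dim and equal (4.99). The facilitated carriers of leucine and related amino acids differed from each other. Slc43a2 (LAT4) stood at 9.68, 10.22 and 9.50, and Slc43a1 (LAT3) at 8.39, 8.17 and 8.51, so their orders were opposite. Slc43a3, a family member known for purine transport, was equal (8.56).

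**Figure D2:**
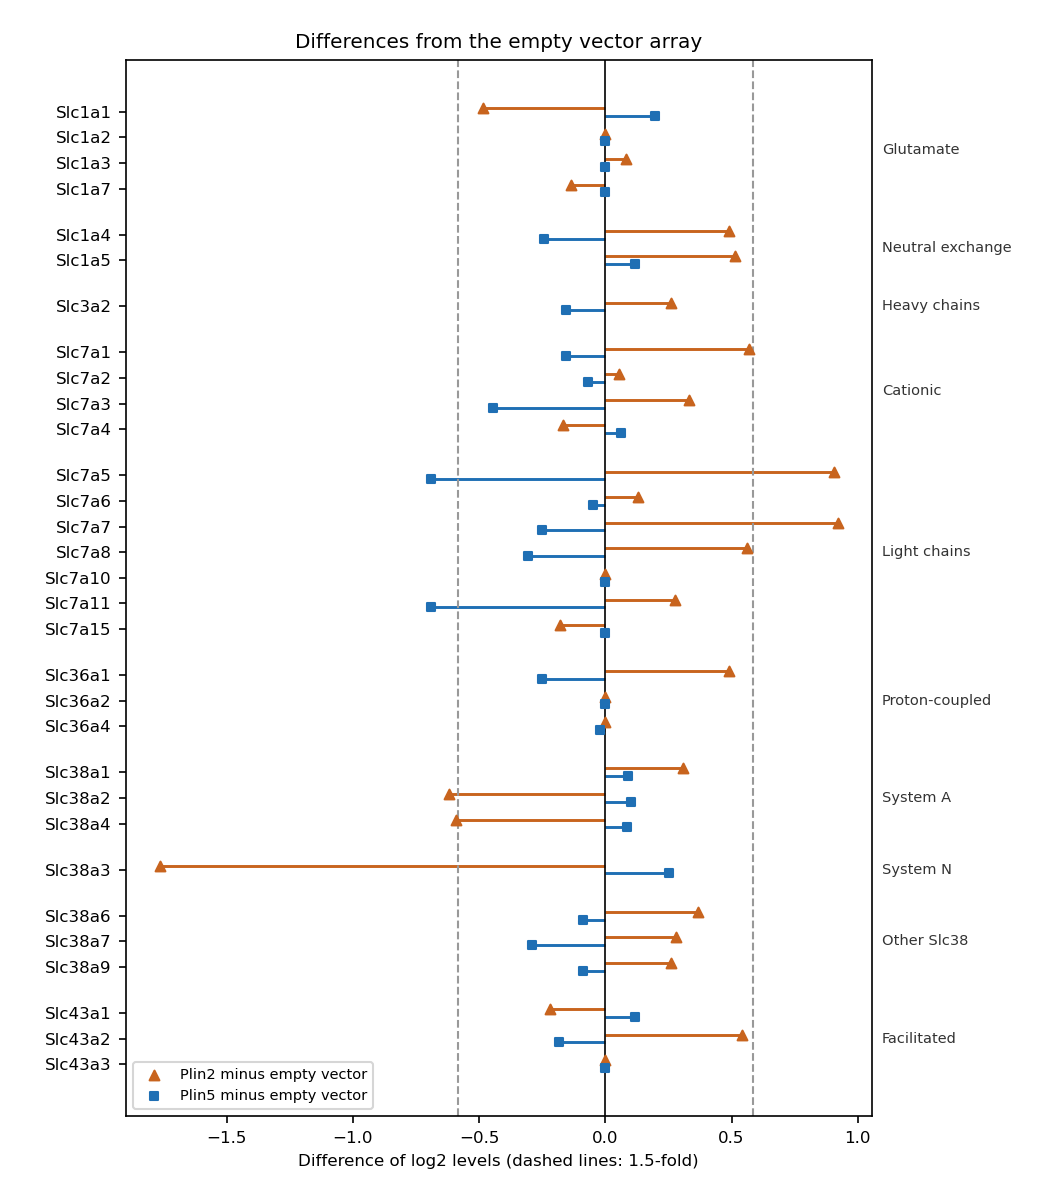
Difference of log2 levels from the empty vector array for the 31 members above the dim level (triangles, Plin2; squares, Plin5; lines run from 0; dashed lines, 1.5-fold). Slc38a3 reaches −1.76 on the Plin2 array, and Slc7a5 passes 1.5-fold to the right for Plin2 (0.91) and to the left for Plin5 (−0.69).

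Counted over the Plin2 comparison, 2 of 31 members (6.45%) were higher by at least 1.5-fold, against 8.84% of all 10879 genes, and 3 (9.68%) were lower, against 5.8%. The members called were few and their shares were near the background. Their median difference was 0.13, against 0.00 for all genes, with 18 members above 0, 8 below and 5 equal, beside 4168, 3448 and 3263 of all genes. With the arrays centred on their median genes, 16 members lay above 0 and 15 below, beside 3341 and 7538 of all genes. By family, 8 of 11 Slc7 members lay above the control and 2 below (7 and 4 after centring), and the median was 0.28. On this array 13 of 14 macrophage markers and 5 of 7 satellite cell and regeneration markers were higher by 1.5-fold. Of the 14 muscle fibre markers, all lay below the control and 3 were lower by 1.5-fold, Myh7 (−1.75), Myh2 (−0.98) and Pvalb (−0.60). The part of these cell types or states in the member differences was not tested.

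In the Plin5 comparison 2 of 31 members (6.45%) were lower by 1.5-fold, against 1.42% of all genes, and 0 were higher, against 0.221%. The 2 were Slc7a5 and Slc7a11, at ranks 99 and 101 downward among 10879 genes. The next was Slc7a3 (−0.44), and the highest member was Slc38a3 (0.25). The median was −0.02, against 0.00 for all genes, and 8 members lay above 0, 16 below and 7 were equal, beside 2812, 3699 and 4368 of all genes. After median-centring 16 members lay above and 15 below, beside 8213 and 2666 of all genes. Of the 11 Slc7 members, 8 were below the control, also after centring. Macrophage markers were lower by 1.5-fold for 5 of 14 genes and tendon markers for 4 of 6, and their part was not tested.

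Set directly against the Plin2 array, the Plin5 array was higher by 1.5-fold for 4 members (12.9%), against 7.19% of all genes, and lower for 9 (29.0%), against 11.3%. The higher ones were Slc38a3 (2.02 log2 units, 4.05-fold), Slc38a2 (0.72), Slc1a1 (0.68) and Slc38a4 (0.68). The lower ones were Slc7a5 (−1.60, 3.03-fold), Slc7a7 (−1.17), Slc7a11 (−0.96), Slc7a8 (−0.87), Slc7a3 (−0.78), Slc36a1 (−0.74), Slc1a4 (−0.73), Slc7a1 (−0.73) and Slc43a2 (−0.72). Slc38a7 (−0.57) lay just short of the threshold. Thus 6 of the 9 were Slc7 members and 3 of the 4 were Slc38 members. Of the 31 members counted, 11 belong to Slc7 and 7 to Slc38. Centring moved the median of all genes by 0.12 between these arrays and left the counts at 4 and 9, while over all genes it turned 782 higher and 1225 lower into 1109 and 979. In this comparison 13 of 14 macrophage markers and 10 of 12 T, natural killer and B cell markers above the dim level were lower by 1.5-fold. So were 6 of 7 satellite cell and regeneration markers. Of the 14 muscle fibre markers, all were higher on the Plin5 array and 3 were higher by 1.5-fold. The part of these cell types or states was not tested.

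**Figure D3:**
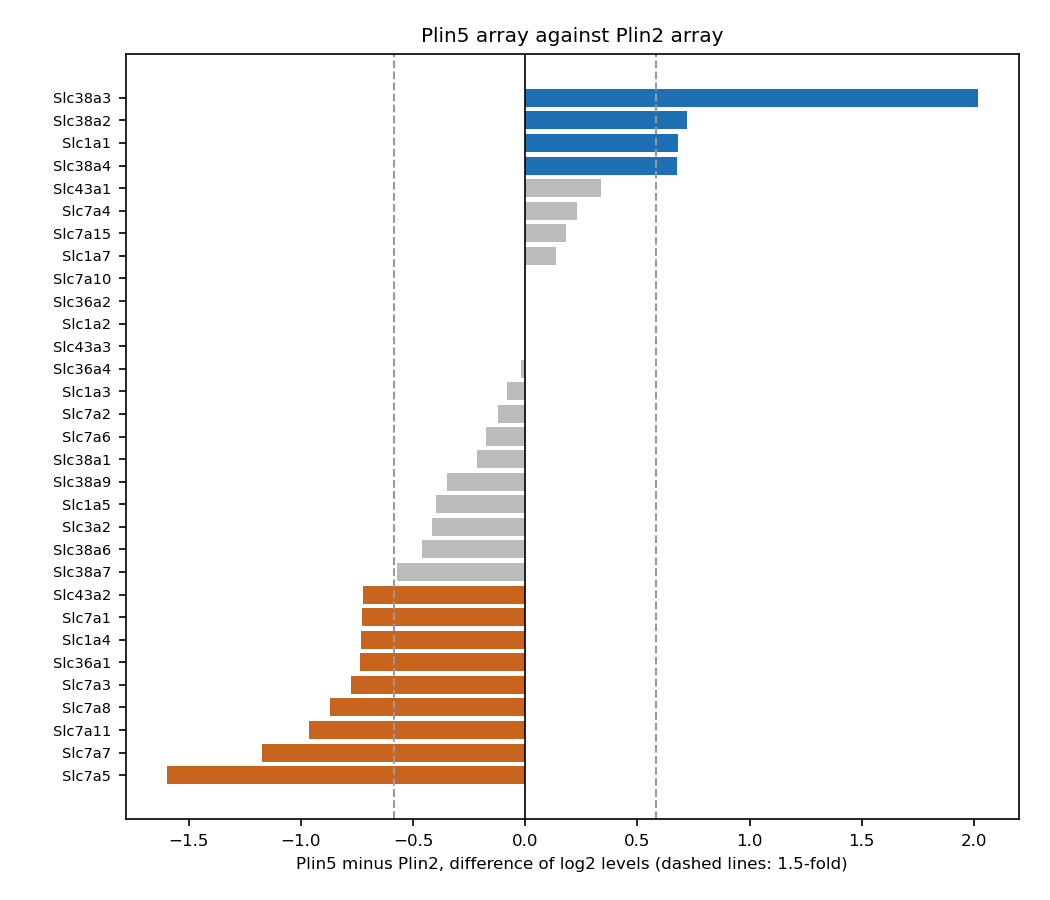
Plin5 minus Plin2 difference of log2 levels for the 31 members above the dim level, in order (blue, higher by 1.5-fold on the Plin5 array; orange, lower by 1.5-fold; grey, neither; dashed lines, 1.5-fold). Slc38a3 (2.02) and Slc7a5 (−1.60) stand at the ends.

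Amino acid transporters of other families were compared in the same way. Of 21 listed, 10 were above the dim level, and on the Plin2 array 2 were higher and 1 lower by 1.5-fold, with a median of 0.20. The shares of all genes were 8.84% higher and 5.8% lower. Slc15a3, a lysosomal carrier of histidine and small peptides known in immune cells, stood at 8.39, 9.53 and 7.93. The taurine carrier Slc6a6 stood at 9.89, 10.51 and 9.65, and its Plin2 difference of 0.63 was 0.54 after centring. Slc16a10, which carries aromatic amino acids, stood at 9.28, 8.38 and 9.24. None of the 10 passed 1.5-fold on the Plin5 array, where only 0.221% of all genes were higher and 1.42% lower. Of 7 mitochondrial amino acid carriers none passed it on either array.

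Enzymes that use the carried amino acids were counted against the same shares of all genes. On the Plin2 array 1 of 10 glutamine and glutamate enzymes was higher and 2 were lower by 1.5-fold, and 2 of 10 arginine enzymes were higher and 1 lower, beside 8.84% and 5.8% of all genes. On the Plin5 array 2 of the 10 arginine enzymes were higher, beside 0.221%. The alanine transaminase Gpt (7.80, 7.03 and 7.96) and the aspartate transaminase Got1 (11.87, 11.19 and 12.01) were the lower ones on the Plin2 array. Aldh18a1, which makes a proline precursor from glutamate, was higher (8.38, 9.02 and 8.33), but short of 1.5-fold after centring. The list median of the glutamine and glutamate enzymes was −0.20 on the Plin2 array and 0.09 on the Plin5 array. Among the arginine enzymes, Ass1, which makes the arginine precursor argininosuccinate, was higher on both arrays (7.25, 8.88 and 8.15), as was Nos2, the inducible nitric oxide synthase (6.67, 7.29 and 7.39), though its Plin2 difference was short of 1.5-fold after centring or quantile normalization. Nos1, the nitric oxide synthase of muscle fibres, was lowest on the Plin2 array (8.36, 6.76 and 8.60). Glutathione synthesis depends on cystine uptake. Of 12 genes of this synthesis and its regulation, only the haem oxygenase Hmox1 passed 1.5-fold on the Plin2 array (7.63, 9.07 and 7.69). None of the 12 passed it on the Plin5 array, where only 0.221% of all genes were higher and 1.42% lower.

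Amino acid response genes, several of them known Atf4 targets, were higher for 5 of 28 and lower for 1 on the Plin2 array, and lower for 2 of 28 on the Plin5 array. The shares of all genes were 8.84% and 5.8% for the Plin2 array and 1.42% lower for the Plin5 array. After centring, 3 in place of 5 were higher on the Plin2 array. The asparagine synthetase Asns stood at 7.97, 9.39 and 7.19 and the stress-induced mTORC1 inhibitor Ddit4 at 8.24, 8.94 and 7.45. Both passed 1.5-fold upward on the Plin2 array and downward on the Plin5 array, the pattern that Slc7a5 had among the transporters. Mthfd2, a mitochondrial folate enzyme, stood at 7.98, 8.96 and 7.68. Aldh18a1 is in this list too, and the fifth gene, Atf3 (8.84, 9.46 and 8.80), was chosen after its values were seen. Vldlr, a lipoprotein receptor, was the lower one (10.64, 9.86 and 10.75). The Atf4 transcript itself stood at 10.79, 10.49 and 10.82 and was also picked after its values were seen. The list median was 0.00 on the Plin2 array and −0.01 on the Plin5 array. At 1.5-fold, only Asns and Ddit4 of the list had the pattern. By sign, 13 of 28 lay above the control on the Plin2 array, beside 4168 of all 10879 genes. On the Plin5 array 16 of 28 lay below it, beside 3699 of all genes.

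Amino acid sensing genes around mTORC1 had small median differences, −0.05 on the Plin2 array and 0.00 on the Plin5 array. Of 27 above the dim level, 2 were lower by 1.5-fold on the Plin2 array and 0 on the Plin5 array. The shares of all genes were 5.8% and 1.42%. On the Plin2 array 16 lay below the control, 4 above and 7 were equal, beside 3448, 4168 and 3263 of all 10879 genes. Rragd, a Rag GTPase that recruits mTORC1 to the lysosome, stood at 11.39, 10.61 and 11.45. Lamtor2, part of the lysosomal anchor of the Rag proteins, stood at 8.59, 8.00 and 8.58.

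**Figure D4:**
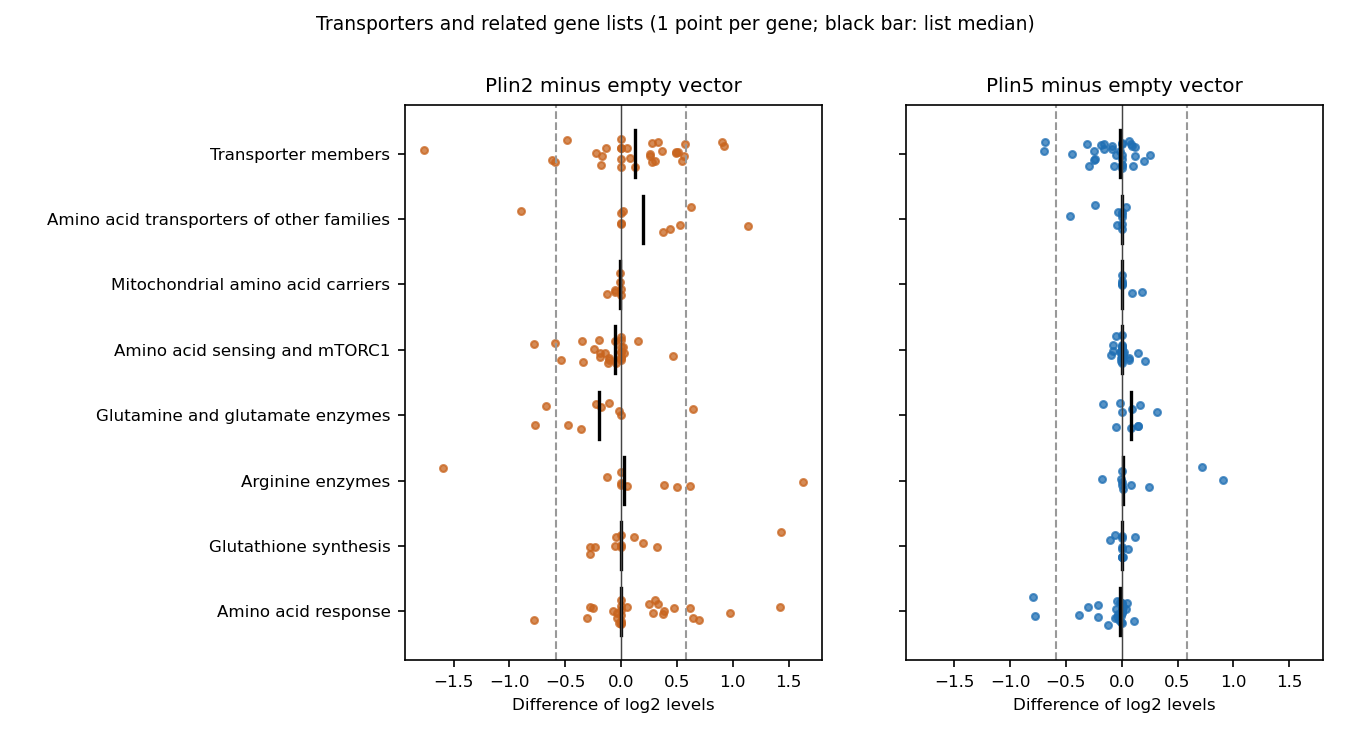
Differences of log2 levels from the empty vector array for the transporter members and 7 related gene lists (left, Plin2; right, Plin5; 1 point per gene above the dim level, shifted vertically for visibility; black bars, list medians; dashed lines, 1.5-fold). Most points lie between the dashed lines, with Slc38a3 (−1.76) the lowest point on the left.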

How the data were processed

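RNA of 6 rats per group was pooled and hybridised to 1 array per group, per the labels' protocols. The deposited values were log2 RMA levels (background correction, quantile normalization and probe summary by the authors); RMA is named without a version in the submitters' processing notes, and the log base was inferred from the range. The chip annotation is not given in the sources used here, nor is a genome build.

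Of 29214 probe sets, 15310 had 1 gene symbol, 323 had several and 13581 were not listed by the platform annotation. The probe set with the highest mean was kept for each of 14506 genes, and 10879 lay above the dim level. Symbols were checked against RefSeq (GRCr8; 15279 probe sets matched), and 2 list symbols were updated. Differences were taken between pairs of arrays and counted at 1.5-fold. No test was possible with 1 array per group. Every member was named, with every array's value given for those past 1.5-fold, for the heavy chains and for the members nearest 1.5-fold; of each related list, up to 4 genes each way past 1.5-fold against the empty vector were named. Members and lists were chosen with earlier results of these data known. Probe summaries give exact ties: 10 of 38 members and 24.6% of genes above the dim level were equal on all 3 arrays. Quantile normalization hides changes in total RNA. The counting was run on simulated data with changes set well past the threshold, which checks the code and not the results. Alternatives covered the fold threshold, dim filter, centring, quantile normalization, loess and averaging of probe sets, and 2 were added after seeing the data. Tables were handled in pandas 2.3.3 and numpy 2.4.6 under Python 3.11.15, loess came from statsmodels 0.14.6, ranks from scipy 1.17.1, and plots from matplotlib 3.10.9.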

Additional observations from a re-analysis of the deposited data

How the results depend on the processing

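Counts of members depended most on the fold threshold. At 1.2-fold, 13 members were higher on the Plin2 array, 5 were lower on the Plin5 array, and 14 were lower on the Plin5 than on the Plin2 array. Of all 10879 genes, 2106, 621 and 2397 did so, so the counts of all genes rose too. At 2-fold, 0 were higher and 1 lower (Slc38a3) on the Plin2 array, beside 272 and 142 of all genes. On the Plin5 array 0 were lower, beside 40 of all genes. The direct comparison had 1 higher and 2 lower, beside 215 and 562 of all genes. With the dim filter at the median gene, 1 member was higher on the Plin2 array (median 0.26), 1 was lower on the Plin5 array and 5 were lower in the direct comparison, since fewer members were counted. The counts of all genes were then 749, 111 and 955. Without a dim filter the medians were 0.00 for Plin2 and −0.049 for the direct comparison. The direct median was −0.052 after centring and −0.076 after quantile normalization. Without members of equal value, an alternative added after seeing the data, the medians were 0.27 for Plin2 and −0.35 for the direct comparison. Averaging probe sets and counting Slc7a6os, which shares only the beginning of its name with Slc7a6, moved no count or median beyond 1.5 times or 0.1 log2 units. In none of the alternatives run did a member past 1.5-fold change sign. No paired analysis was possible because each group is 1 array.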

Other observations

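Members that lie next to each other in the genome did not always share a pattern. Slc36a1, Slc36a2 and Slc36a3 follow each other on chromosome 10 of GRCr8 with 0 other protein-coding genes between them, and only Slc36a1 differed between arrays (0.49 on the Plin2 array). Slc43a1 and Slc43a3 lie on chromosome 3 with 1 gene between them, and Slc43a3 was equal on all arrays while Slc43a1 stood at −0.22 on the Plin2 array. Of the 31 members above the dim level, 4 (12.9%) had exactly equal values on all 3 arrays, beside 24.6% of all such genes, and 6 of the 7 dim members were tied on all 3 arrays.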
